A study of Mus musculus with 51 samples.

Results

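Clustered moderate HNF4a peaks are binding sites of intermediate or low score that lie close to other HNF4a sites in control mouse liver. The members were chosen by position and by score. All peaks of the control list were sorted along each chromosome, and neighbouring peaks were joined into a chain when the gap from the end of the previous peak to the next start was at most 12.5 kb. Chains of 4 or more peaks were kept, and the peaks of these chains with a score under 1000 are the members, while those with a score of 1000 or more are named strong peaks. The rule found 12904 members among 36755 listed peaks, or 35.1% of the list, in 2596 of the 2598 chains kept. Because score and spacing chose the members, the values below describe them and were not tested.

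HNF4a is a nuclear receptor that binds DNA as a homodimer and is a central transcription factor of hepatocytes, where it is needed for many genes of lipid, bile acid, drug and glucose metabolism and for genes of secreted plasma proteins. Transcription factor binding sites in the liver often lie in groups along the genome, and a fixed joining distance of this size is in common use for building large clustered enhancers from single sites. In such groups, sites of high occupancy can stand beside sites of lower occupancy, and a peak list cannot show by itself which of them act on a gene.

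Chromatin immunoprecipitation followed by sequencing (ChIP-seq) maps where a protein sits on DNA, and a peak is a region where immunoprecipitated fragments pile up. The list belongs to 4 HNF4a ChIP-seq samples titled control, with wildtype as their genotype label, Liver as tissue and hepatocytes as source. The study also holds 4 input samples titled wt. The wider study deletes FoxA1 and FoxA2 in adult mice that already lack FoxA3, with an age of 8 weeks stated for the deletion. The controls its design text names are FoxA1L/L/FoxA2L/L/FoxA3-/- mice given a virus that expresses GFP. The ChIP labels give no age and do not settle whether these 4 samples are such controls or wild-type mice; the protocol starts from frozen liver, which also holds cell types other than hepatocytes.

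One peak list stands for the 4 samples, with a position and a score per peak and no value per sample. There is therefore no spread between replicates, no test of any difference below, and no known sequencing depth. Exact 95% Clopper-Pearson intervals beside percentages cover counting error only, and treat peaks as independent draws, which peaks of 1 list need not be. Positions are 1-based and in mouse build mm9, the build named in the submitters' processing notes. Genes and sequences at the peaks were not examined, for want of an annotation and a genome of that build.

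The chains were mostly small, with a thin tail of very large groups. The median chain held 5 peaks, the upper quartile was 7 peaks and the largest chain held 32. Chains of exactly 4 peaks made up 32.8% of all chains (853 of 2598) and held 21.4% of the members. Most members thus lay in chains larger than the smallest size kept. Chains of 5 or 6 peaks held 30.2% of the members, chains of 7 to 9 peaks 24.1%, chains of 10 to 14 peaks 15.9%, and the 73 chains of 15 or more peaks 8.42%.

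**Figure D1:**
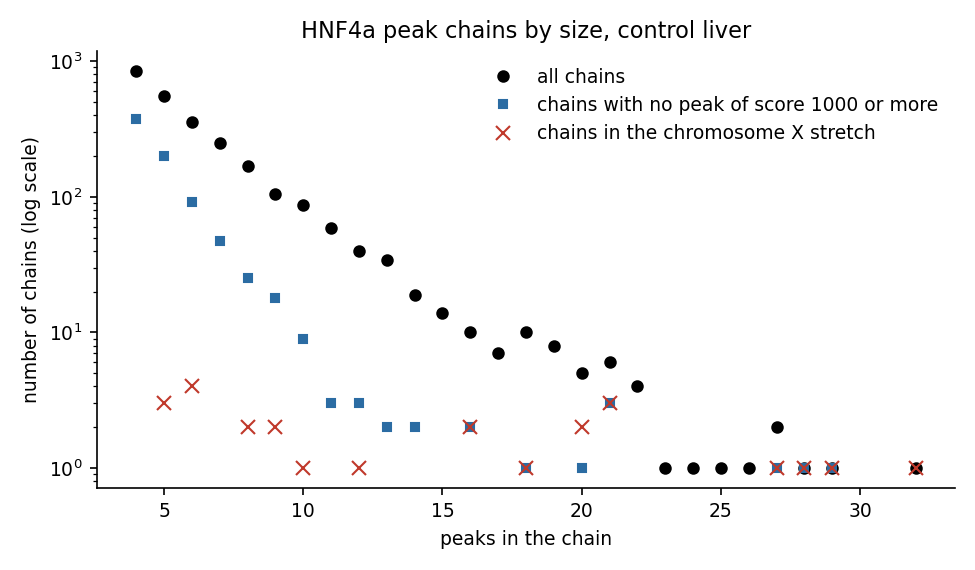
Number of chains (log scale) against the number of peaks in the chain, for all 2598 chains (black circles), the 784 chains with no strong peak (blue squares) and the 25 chains of a dense stretch of chromosome X (red crosses). Counts fall from 853 chains of 4 peaks to single chains above 22 peaks, except for a pair of 27 peaks, and the blue squares at 15 or more peaks all stand with a red cross, except the 1 at 20 peaks where the red cross counts 2 chains.

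The span of a chain, from the start of its first peak to the end of its last, had a median of 22234 bases, with quartiles of 15621 and 31162 bases and a range of 3912 to 140618 bases. Larger chains were longer in proportion to their number of peaks, so that the spacing hardly depended on size. The median span per peak was 3842 bases in chains of 4 peaks, 4046 bases in chains of 7 to 9 and 3995 bases in chains of 15 or more. Within chains, the gap between neighbouring peaks had a median of 2374 bases, with quartiles of 797 and 5597 bases. Most joins were thus far tighter than the limit of the rule. Gaps under 500 bases made up 18.1% of the 13849 gaps, and gaps over 10000 bases made up 6.78%. Peaks covered 26.6% of the summed span of all chains, and the covered share of single chains ran from 8.27% to 93.9%.

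Most chains mixed members with at least 1 strong peak. A strong peak was absent from 784 chains, or 30.2% of all chains, which are named all-moderate chains here. Of the other chains, 861 had 1 strong peak, 524 had 2 and 429 had 3 or more, up to 11 in a single chain, and 2 chains held strong peaks only. A member therefore usually had a strong peak in its own chain, which held for 8741 members (67.7%), against 4163 members (32.3%) in all-moderate chains. Chain size and the list's share of strong peaks bear on this count. Over the whole list, 83.5% of peaks were under the limit. All-moderate chains made up 43.8% of chains of 4 peaks, 7.95% of chains of 10 to 14 and 13.7% of chains of 15 or more.

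The all-moderate chains were smaller and shorter than the chains with a strong peak. Chains of exactly 4 peaks made up 47.7% of all-moderate chains and 26.4% of chains with a strong peak. Chains of 10 or more made up 3.70% of all-moderate chains (2.23% without a dense stretch of chromosome X described below) and 15.6% of chains with a strong peak. Size and class are tied by construction, since a larger chain has more peaks of which 1 can be strong. The median span was 18938 bases for all-moderate chains and 23901 bases for chains with a strong peak, while the median gap differed little, at 2516 bases (2666 without that stretch) and 2338 bases.

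The chains with most peaks fell into 2 kinds. Of the 10 largest, 4 lay on chromosome X within a single stretch and held 27 to 32 peaks each with at most 1 strong peak, and the other 6 lay on autosomes and held 22 to 27 peaks with 3 to 10 strong peaks. The largest autosomal chain, at chr1:89936811-90044675, spanned 107865 bases with 27 peaks, of which 20 were members and 7 were strong. Its members had scores of 62.3 to 844, with a median of 362, and its strong peaks had scores of 1267 to 3026. Members and strong peaks were interleaved along it: 4 strong peaks started 1777 to 10381 bases from its start, 1 at 25327 bases, and a pair at 65176 and 68509 bases, with a member of score 541 between this pair. The 10 peaks after this pair, from 74540 bases on, were all members, with scores of 62.3 to 619.

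The other autosomal chains among the 10 largest had the same interleaved layout. The chain at chr15:81630735-81729862 held 18 members and 8 strong peaks, and its members' median score was 163. The chain at chr14:26270318-26363782 held 15 members and 10 strong peaks, with a member median of 212. The chain at chr4:45456389-45545845 held 21 members, more than any other autosomal chain, and 3 strong peaks. The highest member score was 699.5 in the chromosome 15 chain, 922 in the chromosome 14 chain and 920 in the chromosome 4 chain. The top score was 3169 in the chromosome 15 chain, 2718 in the chromosome 14 chain and 3140 in the chromosome 4 chain. The last pair among the 10 largest, at chr1:195051580-195154462 and chr3:137885044-137969743, held 19 and 16 members beside 4 and 6 strong peaks.

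**Figure D2:**
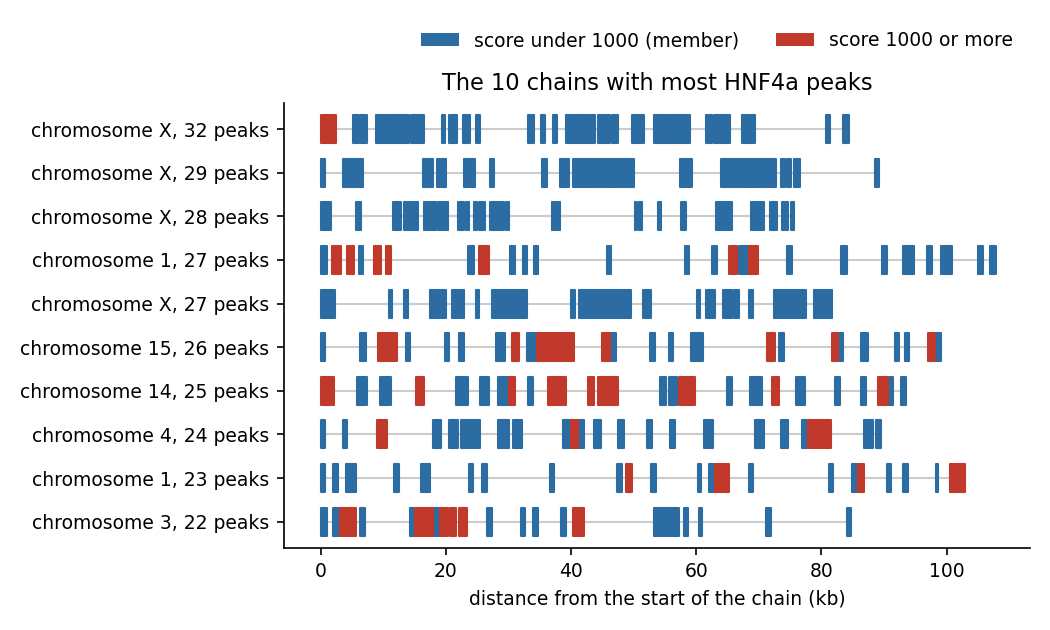
Layout of the 10 chains with most peaks, each drawn as a line from its start (distance in kb) with every peak as a bar of its own width, blue for members and red for strong peaks. The chains of chromosome X are blue throughout except for 1 red peak at the start of the 32-peak chain, while the autosomal chains show 3 to 10 red peaks spread between blue ones.

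The longest chain by span, which tied at 22 peaks with the last of the 10 chains above and stood behind it only by chromosome order, lay at chr4:144537444-144678061, spanned 140618 bases and held 19 members and 3 strong peaks, with a median gap of 4544 bases. Another of the 5 longest, at chr19:4496341-4600624, held 14 members and 7 strong peaks over 104284 bases. The fifth, at chr15:82191562-82291557, had the most strong peaks of any chain, 11 of 18, and its 7 members had scores of 64.3 to 648. In that chain a run of 3 members, at scores of 70.9, 648 and 183, and a pair at 220 and 234 were set between strong peaks, and 4 of the 11 strong peaks of the chain had a score of 3100. The chromosome 14 chain above followed with 10 strong peaks. The remaining 3 chains with most strong peaks held 9 each, beside 10 members at chr5:66433999-66506459, 8 members at chr6:85760421-85819815 and 13 members in a chain of chromosome 18.

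At the other end of the scale, some members stood almost side by side. The densest chain by span per peak lay at chr8:118278502-118282413, where 4 members filled 79.6% of 3912 bases. From the low to the high coordinate their scores were 95.6, 705, 860 and 68.6, with gaps of 667, 41 and 90 bases. The inner pair thus stood far above both outer peaks. In the chain at chr4:118788849-118793261, the 4 members had scores of 123, 120, 379 and 198, and the last pair was 8 bases apart. In the chain at chr16:43360018-43365974, the 5 members had scores of 142, 75.0, 390, 90.4 and 596. Several of these gaps, such as those of 41, 90 and 8 bases, are far shorter than the peaks beside them, and whether such neighbours are separate sites or parts of a single enriched region cannot be told apart in this list. The remaining dense chains, at chr7:148194699-148199356 and chr16:23055456-23060188, each held 4 peaks with 1 and 2 strong peaks among them.

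Outside chromosome X the longest all-moderate chain was sparse. It lay at chr10:93560154-93638070, spanned 77917 bases and held 10 members, with a median gap of 8190 bases and 14.3% of its span covered. Its scores in order were 256, 191, 495, 185, 108, 163, 374, 911, 636 and 51.6. The 2 highest scores stood next to each other near the far end, and the lowest was the last peak. Its longest gap was 12008 bases and the next 10856 bases.

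A dense stretch of chromosome X stood apart from the rest of the list, and was picked out after its values were seen. At chrX:120113445-122706307 it held 25 chains with 364 peaks, of which 358 were members and 6 were strong. These members were 2.77% of all members and 63.6% of the members of chromosome X. All 10 all-moderate chains of 15 or more peaks in the list lay there, as did 12 of the 29 all-moderate chains of 10 or more. Outside the stretch the largest all-moderate chain held 14 peaks.

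The members of the stretch were closer together, lower in score and wider than the other members. The median gap was 882 bases inside and 2428 bases outside, and peaks covered a median of 37.7% of a chain's span inside and 26.2% outside. The median member score was 152 inside and 223 outside. The low score was not particular to the stretch, since the median over all 563 members of chromosome X was 143. Width went the other way from score, with a median of 976 bases inside and 801 bases outside, and 14.2% of the members inside were 2000 bases or wider against 2.97% outside. A wider peak usually had a higher score in this list, with a Spearman correlation of 0.52 across the 12904 members, and that relation was not examined within the stretch alone.

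Part of the stretch had a regular layout. After a first chain of 5 peaks and a single peak, which were left out of the spacing below, 5 large chains of 16 to 29 peaks alternated with 4 small chains of 6 peaks each. The starts of successive large chains were 217762 to 232115 bases apart, and the starts of successive small chains were 221399 to 229371 bases apart. The spacing thus varied little from chain to chain. What the underlying sequence holds was not tested, since no genome of this build was used here, and how reads that match several places were treated is not given in the sources used here.

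**Figure D3:**
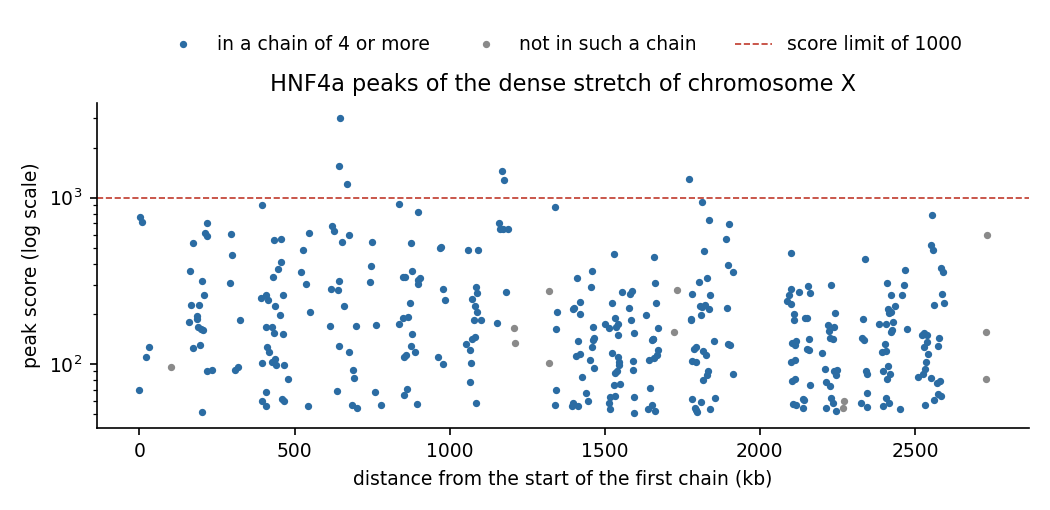
Score (log scale) of every listed peak of the chromosome X stretch against distance in kb from the start of its first chain; blue points lie in chains of 4 or more peaks, grey points do not, and the dashed line is the score limit of 1000. Columns of blue points recur along part of the stretch, and 6 points lie above the line.

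The peaks of chains were less often moderate than isolated peaks, which have no other listed peak within 12.5 kb. Of the 16447 peaks in chains, 78.5% had a score under 1000 (interval 77.8 to 79.1%). The share was 85.1% (84.4 to 85.8%) for the 10960 peaks in chains of 2 or 3, and 90.3% (89.7 to 90.9%) for the 9348 isolated peaks. The share thus fell with grouping, by 11.9 percentage points from isolated peaks to chains of 4 or more. It went on falling only slightly with chain size, from 81.0% in chains of 4 peaks to 75.7% in chains of 10 to 14. In chains of 15 or more it was 79.0%, and 74.3% without the chromosome X stretch.

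Scores under the limit also lay higher in chains. Members had a median score of 220, with quartiles of 106 and 467. The 9327 peaks under 1000 in chains of 2 or 3 had a median of 204, and the 8444 isolated peaks under 1000 had a median of 164, with quartiles of 86.6 and 359. The ranges overlapped almost wholly, and the shift was seen along the whole distribution except at its highest score. Scores under 100, the weakest of the list, were held by 23.1% of members, 25.0% of the peaks under 1000 in short chains and 30.9% of the isolated peaks under 1000. Within chains of 4 or more the members' score hardly depended on chain size: the median was 222 in chains of 4 and 231 in chains of 10 to 14, and in chains of 15 or more it was 196, or 224 without the chromosome X stretch.

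**Figure D4:**
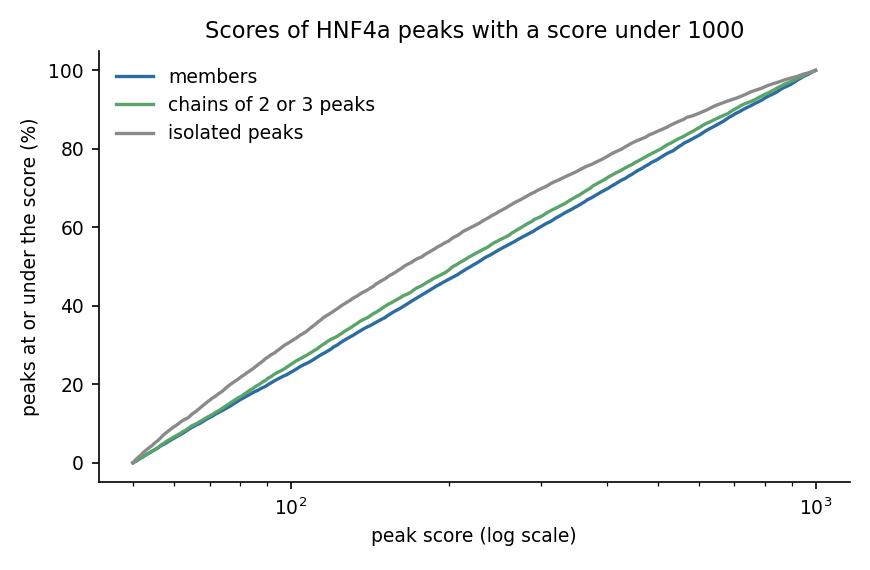
Cumulative percentage of peaks at or under each score (log scale), for members, peaks of chains of 2 or 3 and isolated peaks, all with a score under 1000. The curve of the members lies to the right of that of isolated peaks, with medians of 220 and 164, and the short chains lie mostly between them, with a median of 204.

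Members were wider than isolated peaks within bands of similar score. The median width was 804 bases for members, 766 bases for the peaks under 1000 of short chains and 735 bases for isolated peaks under 1000. Since score and width come from the same peak finding and move together, widths were set side by side within 9 bands of score, inside which the scores of both kinds can still differ. In all 9 bands the members' median was the larger, by 10 bases among scores of 50 to 75 and by 141 bases among scores of 800 to 1000. The excess was mostly larger at higher scores, but not at each step, being 115 bases at 400 to 600 and 93 bases at 600 to 800. It was 11 to 136 bases without the chromosome X stretch.

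**Figure D5:**
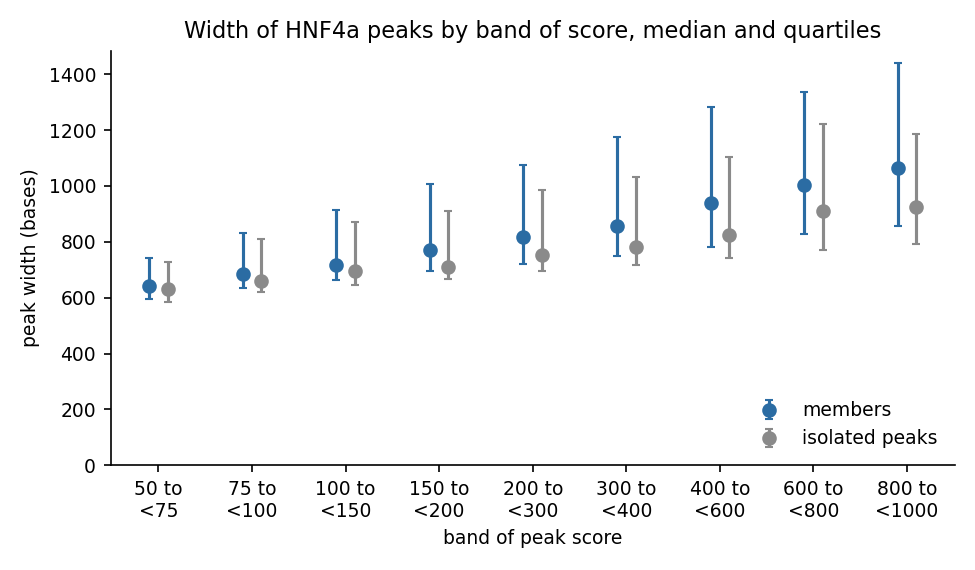
Median width in bases (points) with quartiles (bars) of members and of isolated peaks in 9 bands of peak score. The members' median is above that of isolated peaks in every band, from 641 against 631 bases in the lowest to 1065 against 924 bases in the highest, and the quartile bars overlap in all bands.

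Very wide peaks were rare among members but less rare than among isolated peaks. A width of 2000 bases or more was found in 3.28% of members, 1.98% of the peaks under 1000 in short chains and 1.29% of the isolated peaks under 1000. The widest member, at chr4:49546973-49562864, was 15892 bases wide, the widest peak of the whole list, at a score of 540. The next, at chrX:4240758-4249526, was 8769 bases wide with a score of 969, and the third, at chr4:146892310-146899988, was 7679 bases wide with a score of 682. The widest member alone was thus longer than the lower quartile of chain spans, 15621 bases.

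The score of a member was nearly unrelated to its place beside a strong peak. In chains that held both, the distance from a member to the nearest strong peak had a median of 5719 bases, and 25.0% of these members were within 2000 bases. Their median score was 246 at distances under 500 bases, 242 at 2000 to 5000 bases, 227 at 10000 to 20000 bases and 231 beyond 20000 bases. Over all 7 distance bands the medians ran from 226 to 246, while the quartiles in each band ran from about 106 to 116 up to about 473 to 511. Whether the chain held a strong peak at all went with a larger shift: members had a median score of 233 in chains with a strong peak and 193 in all-moderate chains. Without the chromosome X stretch the median in all-moderate chains was 199. The rule bears on this pair of medians, since chains were sorted here by the scores of their own peaks.

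The scores of neighbouring peaks of a chain were only weakly correlated. Across all 13849 pairs of neighbours the Spearman correlation of their scores was 0.06, and across the 8526 pairs in which both were members it was 0.02. It did not rise for the closest pairs, being 0.05 for gaps under 500 bases and 0.07 for gaps of 5000 bases and more. These pairs share peaks and a single list, and are given as a description.

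Members at the ends of chains resembled those inside. The first and last peaks of chains were under 1000 in 80.5% of cases and the peaks inside in 77.5%. The members' median score was 214 at the ends and 223 inside, and their median width 799 and 806 bases. Chain ends were thus slightly more often moderate, and the difference in score was small against the score quartiles of either place.

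On the autosomes, members made up 30.7% (chromosome 3) to 40.6% (chromosome 19) of the listed peaks. From 39.3% (chromosome 2) to 52.4% (chromosome 19) of an autosome's peaks lay in chains, and 75.1% (chromosome 15) to 81.4% (chromosome 16) of those were members. Chromosomes with more peaks per Mb had a larger share in chains, with a Spearman correlation of 0.80 over the 19 autosomes. A fixed joining distance ties this pair of measures together, since denser peaks are joined more often. Chromosome 19 was the densest at 24.3 peaks per Mb between its first and last peak, and chromosome 1 the sparsest at 11.9, with 41.1% in chains. The members' median score was 194 (chromosome 18) to 277 (chromosome 7).

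Chromosomes X and Y had a smaller share of strong peaks and lower median member scores than any autosome, at 143 on chromosome X and 119 on chromosome Y. Chromosome X had 7.22 peaks per Mb, fewer than any autosome, with 49.3% of its peaks in chains, or 27.1% without the dense stretch, for which all peaks between 120 and 123 Mb were left out here and elsewhere. Of its chain peaks, 96.9% were members (94.5% without the stretch), and 79.0% of its chains were all-moderate (73.0% without the stretch), against 21.9 to 42.6% on the autosomes. This was not particular to chains: over all listed peaks, 96.7% were under 1000 on chromosome X and 98.1% on chromosome Y, against 81.4 to 84.3% on the autosomes. Chromosome Y had 53 listed peaks, of which 35 were members in 6 chains, all of them all-moderate.

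Members were gathered in fewer places than isolated peaks. The chromosomes were divided into windows of 1000000 bases, of which 2218 held a listed peak. A member was present in 1217 of these windows (54.9%) and an isolated peak in 2133 (96.2%). The 281 windows richest in members (12.7%) held 50% of all members, whereas the 575 richest in isolated peaks (25.9%) were needed to hold 50% of the isolated peaks. Members outnumber isolated peaks and come by definition in groups, which bears on both counts. Almost all windows with a member, 1191 of 1217, also held an isolated peak, although the 2 windows with most members held none.

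The 3 windows with most members were those of the dense stretch on chromosome X, with 138, 116 and 104 members. The next were at 60 to 61 Mb of chromosome 4, with 55 members, 20 strong peaks and 11 chains that start there, and at 72 to 73 Mb of chromosome 6, with 48 members and 13 strong peaks. A window of chromosome 10, at 127 to 128 Mb, had 45 members and 24 strong peaks, and a window of chromosome 5, at 122 to 123 Mb, had 43 and 14. The window at 146 to 147 Mb of chromosome 4 was unlike these, with 46 members, only 2 strong peaks and 14 isolated peaks.

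Isolated peaks were mostly far from any chain, and those near a chain had higher scores than those far away. The distance from an isolated peak to the nearest chain had a median of 218784 bases, and 17.3% of isolated peaks (1619) lay within 50000 bases of a chain. These had a median score of 230 over all scores, with 86.3% under 1000. The 1555 isolated peaks over 1000000 bases from a chain had a median score of 179, with 93.3% under 1000. The share of moderate peaks was thus lowest inside chains, higher in isolated peaks near chains and highest in isolated peaks far from chains. Chromosomes X and Y, with their small share of strong peaks, were not left out here, and their part in this order was not tested.

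Scores and gaps ran on without a visible break across the limits of the rule. The members with the highest scores were at chr9:31014998-31016002 (999.6), chr11:102291014-102292241 (998.9) and chr15:26306942-26307760 (998.6). The nearest chain peaks outside the limit were at chr3:90062250-90063005 (1000.6), chr7:3235497-3236318 (1000.7) and chr5:125554261-125555987 (1001.6). Peaks were about as frequent on both sides of the limit: 190 members had scores from 950 up to 1000, and 216 chain peaks had scores from 1000 to 1050. Gaps between neighbouring peaks of the whole list were also about as frequent on both sides of the joining distance, with 285 in the last 500 bases under it and 270 in the next 500 bases. The members with the lowest scores, at 50.01, 50.03 and 50.05, stood at the bottom of the list, whose lowest score was 50.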

How the data were processed

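HNF4a ChIP-seq peaks of 4 control samples were used as the list of positions and scores that the authors deposited. The score's scale is not stated, nor whether the samples were pooled. The submitters' processing notes name build mm9, Bowtie2 2.3.4.1, MACS2 2.1.1.20160309 and other tools without roles; the peak names carry the older MACS prefix. Against the supplied GRCm38.p6 promoter table, 3.98% of the 35557 peaks on chromosomes with an entry in it lay within 500 bases of a gene start, and 3.69% and 3.41% after all peaks were moved by 100000 bases either way. No gene, expression or sequence was therefore joined, and no sequence is printed.

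Chains were built in Python 3.11.15 with pandas 2.3.3. bedtools 2.31.1 merge gave the same 16653 groups, and the chaining was tested on simulated data. Shares, medians, quartiles and Spearman correlations are descriptions, and intervals came from scipy 1.17.1. The list holds no per-sample values and its depth is unknown.

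The members and lists were chosen with earlier results of these data known. Chains are named by rule: the 10 with most peaks, the 5 with most members, the longest span, the shortest span per peak or most strong peaks, and the 3 longest all-moderate ones. Peaks are named as the 3 highest, lowest and widest members and the 3 just outside the limit. The chromosome X stretch, windows and distance bands were chosen after values were seen. Alternatives changed the joining distance, chain size, score limit, peak threshold, merging, distance measure and the definition of isolated peaks. The ChIP-seq samples of other genotypes were not analysed here.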

Additional observations from a re-analysis of the deposited data

How the results depend on the processing

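The alternatives changed 1 choice at a time, except those with the score limit on both sides, which changed 2. A joining distance of 5000 bases gave 1528 chains and 6173 members, chains of 3 or more gave 4144 chains, and only peaks at or above the list's median score gave 959 chains and 2948 members; other settings kept both counts within 1.5 times. The share under the limit in chain peaks minus isolated peaks (-11.9 percentage points) was -13.3 at 5000 bases, -10.3 at 25000 bases, -10.6 for chains of 3 or more, -15.6 at a limit of 500, -15.3 with peaks at or above the median, -13.1 with peaks closer than 500 bases merged and -13.6 with isolated peaks free of neighbours for 25000 bases. No score limit, or isolated peaks under the limit only, gives no value for this share.

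The members' median score minus that of isolated peaks of any score was 27.5. It was 140 with no limit, 43.8 with the 25000-base definition of isolated peaks and 56.1 against isolated peaks under 1000. It reversed to -34.6 at a limit of 500 and to -87.0 with peaks at or above the median, settings that limit the members' scores and not those of isolated peaks. With the limit on both sides, alternatives chosen after seeing the data, these became 25.3 and 44.6. The same difference in median width, 47 bases, was 63 and 37 at joining distances of 5000 and 25000, 132 with no limit, 30.5 with peaks at or above the median, 62 with the 25000-base definition and 69 against isolated peaks under 1000. It reversed to -2 at a limit of 500, and was 45 with that limit on both sides and 107 with peaks at or above the median and both sides limited. Leaving out the chromosome X stretch, or chromosomes X and Y, also chosen after seeing the data, reversed none of these differences.

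No paired analysis was possible because the list holds no per-sample values. Expression at the chains and sequence composition, with their alternatives, were not run, for want of an annotation and genome of the peaks' build here. Without depth, per-sample values or a stated scale, the scores were compared within this list only. They give no order among the 434 peaks at exactly 3100. Whether these peaks rank below the 80 peaks with a higher score was not tested. A site missed by the peak threshold would break or shorten a chain.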

Other observations

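The score 3100 recurred exactly in 434 listed peaks, and 80 peaks had a higher score, up to 3233. All of these lie above the members' limit, so members' scores are not affected by that repeated value. What it means for the spread and the order of the highest scores of strong peaks was not tested.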
